A study of Mus musculus with 7 samples.

Results

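The miRNAs miR-103 and miR-107 and their relatives of the miR-15/16 family were followed in Ago2-bound small RNA from mouse plasma. The members were taken by name as the mature strands miR-103-3p, miR-107-3p, miR-15a-5p, miR-15b-5p, miR-16-5p, miR-195a-5p and miR-497a-5p. All 7 had a row among the 640 mature miRNAs counted. The libraries came from mice labelled c57 (C57BL/6JOlaHsd in the methods) given intra-amygdala kainic acid (KA, 0.3 μg), which triggers status epilepticus (SE), or PBS by the same route (control). Mice with SE also received midazolam or lorazepam 40 min later to limit mortality, so the agent and the treatment of the seizures cannot be told apart from SE itself. Plasma was pooled from 10 adult male mice per condition, Ago2 was immunoprecipitated, and 1 library was sequenced per condition. Control plasma was sampled at 4 h, 8 h and 24 h, and SE plasma at these acute times and again at 2 weeks. The library for a 2-week control failed its quality check, so SE 2 weeks was set against control 24 h.

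Each condition is therefore 1 pool without a replicate, and a fold between SE and control compares those 2 libraries. In pooled plasma, more cells releasing a miRNA and more released per cell cannot be told apart.

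miRNAs guide Argonaute proteins such as Ago2 to partly complementary messenger RNAs, mainly through the seed, bases 2 to 8 from their 5′ end. The miR-15/16 miRNAs are known for restraining cell-cycle and survival genes, and miR-16-5p is abundant in blood cells. miR-103 and miR-107 lie in introns of the pantothenate kinase genes and are known as regulators of insulin sensitivity and of Dicer. In the study's literature list miR-107-3p is ubiquitous and assigned to neurons, miR-103-3p is ubiquitous and assigned to brain, and miR-16-5p and miR-15a-5p are assigned to microglia.

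The mature sequences below, from RefSeq on GRCm38.p6, are shown because the members are defined by them. Capitals mark the seed.
miR-103-3p: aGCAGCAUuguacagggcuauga
miR-107-3p: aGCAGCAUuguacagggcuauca
miR-15a-5p: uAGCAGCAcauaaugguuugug
miR-15b-5p: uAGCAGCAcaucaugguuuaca
miR-16-5p: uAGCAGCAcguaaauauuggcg
miR-195a-5p: uAGCAGCAcagaaauauuggc
miR-497a-5p: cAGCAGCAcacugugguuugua
The run AGCAGCA begins at base 2 of the 5 miR-15/16 members, where it is the whole seed, and at base 1 of miR-103-3p and miR-107-3p, so their seed is shifted by 1 base.

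miR-103-3p and miR-107-3p are both 23 bases long and differ by the single substitution G22C, counted from the 5′ end with the base of miR-103-3p first. The difference is shown in capitals here.
miR-103-3p: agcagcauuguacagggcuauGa
miR-107-3p: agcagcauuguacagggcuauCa
It lies next to the 3′ end, so the seed is shared. Reads were aligned with up to 2 mismatched nucleotides, which is more than separates the pair, and how a read that fits both was assigned is not given in the sources used here. Their separate counts are therefore uncertain, and their sum is given beside them. No other counted miRNA with a sequence lay within an edit distance of 2 of any member. The closest pair among the rest was miR-16-5p and miR-195a-5p, with G10A and U11G over the 21 bases of miR-195a-5p and an edit distance of 3. Over those 21 bases they differ by no more than the 2 mismatches allowed, so their separate counts carry the same uncertainty.

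By GENCODE, miR-107-3p is encoded on chromosome 19 (34820700 to 34820722, minus strand) in an intron of Pank1. miR-103-3p has a copy in an intron of Pank2 on chromosome 2 (131288103 to 131288125, plus strand) and another in an intron of Pank3 on chromosome 11 (35782447 to 35782469, plus strand). miR-15a-5p and 1 copy of miR-16-5p lie in an intron of the noncoding gene Dleu2 on chromosome 14 (61632075 to 61632096 and 61631936 to 61631957, minus strand). miR-15b-5p and the other copy of miR-16-5p lie in an intron of Smc4 on chromosome 3 (69009775 to 69009796 and 69009918 to 69009939, plus strand). miR-497a-5p and miR-195a-5p are close together on chromosome 11 (70234730 to 70234751 and 70235062 to 70235082, plus strand), outside the other annotated transcripts.

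Control 4 h had the fewest counts (2043220) and SE 4 h the most (5405357). Levels are CPM, counts scaled to library sizes that edgeR adjusts by TMM (trimmed mean of M-values), with factors from 0.754 to 1.22. Low counts were not spread evenly. Their commonest size, called the low-count value here, was 102 counts in control 4 h and 33.1 to 60.2 in the others. It equals 58.7 CPM in control 4 h and 8.83 to 16.1 CPM elsewhere. Whether it is the number of reads from 1 captured molecule was not tested, but a level under it is poorly resolved. The erythroid marker list, with 6 of its 7 miRNAs counted, held 62.6% to 76.1% of a library, nearly all of it miR-486b-5p, while the red-cell miRNA miR-451a had at most 81 counts. Outside the miR-486 rows the list summed to 2.30 CPM in control 4 h and to between 345 and 671 CPM in the other 6 libraries.

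The levels of the members ranged over more than 3 orders of magnitude, and miR-107-3p with miR-16-5p made up 91.6% to 96.9% of their counts in every library. In control plasma miR-107-3p had 8231 CPM at 4 h, 6095 at 8 h and 2864 at 24 h. In SE plasma it had 13180, 12700 and 7693 CPM at the same times and 3532 CPM by 2 weeks. It was the 8th most counted miRNA in SE 8 h and the 24th in control 24 h. The 2 earliest SE libraries lay above all 3 controls, whereas SE 24 h and SE 2 weeks lay within the control range. In the control and in the SE libraries alike the level was lowest at the latest time sampled.

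miR-16-5p was the steadiest of the abundant members. It had 3791, 3780 and 4920 CPM in control 4 h, 8 h and 24 h, and in SE, in order of time, 4724, 3003, 5056 and 3665 CPM. The SE values spread on either side of the control values. miR-107-3p exceeded miR-16-5p in 5 libraries and was below it in control 24 h and SE 2 weeks.

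miR-103-3p had 285, 231 and 308 CPM in control 4 h, 8 h and 24 h. The SE libraries, in order of time, had 219, 195, 245 and 261 CPM. Its whole range was 195 to 308 CPM, against 2864 to 13180 CPM for miR-107-3p. miR-15a-5p, encoded beside a copy of miR-16-5p, was at a like level, with 189, 220 and 348 CPM in the controls and 455, 242, 275 and 164 CPM in SE. miR-15a-5p exceeded miR-103-3p in control 24 h and in the 3 acute SE libraries and was below it in the other 3, so these 2 members have no fixed order.

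**Figure D1:**
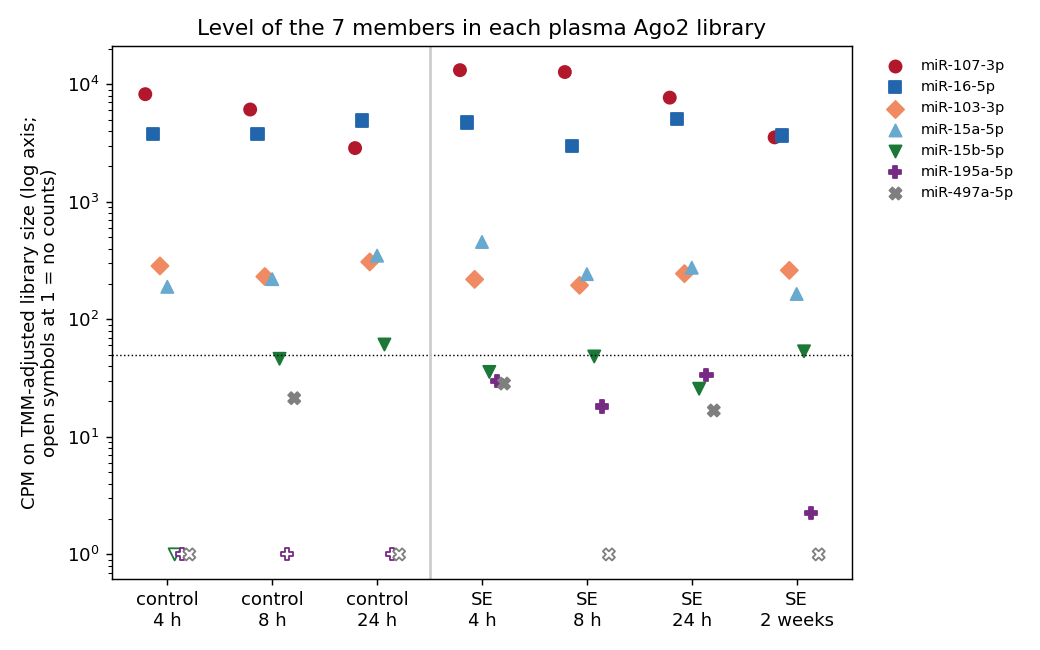
CPM of each of the 7 members (symbols) in each of the 7 libraries, on a log axis, with open symbols drawn at 1 where a library had no counts and a dotted line at 50 CPM. miR-107-3p runs from 2864 to 13180 CPM while miR-103-3p stays between 195 and 308 CPM, and miR-195a-5p has no counts in the 3 control libraries.

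The main question of the design is how SE changed plasma levels at each time-point. A change was called at 1.5-fold or more in miRNAs that reached 50 CPM in one or the other library, and it carries no p-value. miR-107-3p was higher in SE than in control at 4 h (log2 fold change 0.68, 1.60-fold), at 8 h (1.06, 2.08-fold) and at 24 h (1.43, 2.69-fold). The 2-week log2 fold change was 0.30, under the threshold. It was negative against any other control, at -1.22 for control 4 h, -0.79 for control 8 h and -0.61 for the 3 pooled. The 95% counting intervals were 0.65 to 0.71 at 4 h, 1.04 to 1.08 at 8 h and 1.39 to 1.46 at 24 h. They cover counting error only, since reads carry no molecular identifiers.

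Among all miRNAs tested, 32.3%, 35.1% and 24.8% were called higher at the acute times and 18.6% at 2 weeks, so an increase past 1.5-fold was common. The log2 fold change of miR-107-3p exceeded that of 69.3%, 79.2% and 92.2% of tested miRNAs at the acute times and 69.7% at 2 weeks. The 4 h call rested on the scaling. Its log2 fold change was 0.55 with the size factors of DESeq2, 0.56 on library size only and 0.52 with TMM over that pair of libraries. At 24 h it rested on the control: against the 3 control libraries pooled, the log2 fold change was 0.44.

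The sum of miR-103-3p and miR-107-3p gave log2 fold changes of 0.65, 1.03 and 1.32 at the acute times and 0.26 at 2 weeks. This sum does not depend on how reads were divided between them, provided no read was dropped or counted for both.

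miR-103-3p lay on the other side of 0 in every comparison, with log2 fold changes of -0.38, -0.25 and -0.33 in order of the acute times and -0.24 at 2 weeks. None reached 1.5-fold. On library size only it was -0.95 at 24 h, past 1.5-fold, a scaling that moved the median of all tested miRNAs at that time from 0.04 to -0.64. Against the 3 control libraries pooled it was -0.73 at 8 h, also past 1.5-fold. The 2-week value turned positive, 0.18, when control 8 h was the reference.

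miR-16-5p was called in no comparison, with log2 fold changes of 0.32, -0.33 and 0.04 at the acute times and -0.42 at 2 weeks. Against the 3 pooled controls it was -0.04 at 4 h and -0.75 at 8 h. At 24 h the sign depended on the scaling, from -0.58 on library size only to 0.10 by the DESeq2 size factors. miR-15a-5p was called higher at 4 h (log2 fold change 1.27, 2.41-fold) and lower at 2 weeks (-1.08, 2.12-fold lower), and its values at 8 h and 24 h were 0.14 and -0.34. The increase at 4 h is measured against 329 counts in control 4 h, which is 3.22 times the low-count value of that library. Against the 3 control libraries pooled it was 0.58, just under the threshold. The 2-week decrease is against control 24 h, which held the highest control level, and shrank to -0.20 with control 4 h as the reference and to -0.42 with control 8 h. With the 3 controls pooled it was -0.74, still past 1.5-fold.

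miR-15b-5p, the partner of miR-16-5p in Smc4, was counted at a low level. It had 0, 199 and 241 counts in the controls and, in order of time, 152, 176, 72 and 165 counts in SE. It reached 50 CPM only in control 24 h (61.1 CPM) and SE 2 weeks (53.4 CPM), and so was compared at 24 h and 2 weeks. At 24 h it was called lower in SE (log2 fold change -1.25, counting interval -1.65 to -0.86), where the 72 counts of SE 24 h are 1.59 times the low-count value. At 2 weeks the log2 fold change was -0.19, and at 4 h the 0 counts in control give an SE level at least 20.7-fold higher against a floor of 3 counts. That SE level, 35.7 CPM, is under the low-count value of control 4 h, 58.7 CPM, so the absence is not resolved. Against the 3 pooled controls the 4 h log2 fold change was -0.50, the opposite direction.

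In all, 2 members were called higher and 0 lower at 4 h, 1 higher and 0 lower at 8 h, 1 higher and 1 lower at 24 h, and 0 higher and 1 lower at 2 weeks. miR-195a-5p and miR-497a-5p stayed under 50 CPM and could not be called, and miR-15b-5p could be only at 24 h and 2 weeks. Increases past 1.5-fold took 32.3%, 35.1% and 24.8% of all tested miRNAs at the acute times and 18.6% at 2 weeks. Decreases past 1.5-fold took 34.9%, 14.9% and 19.9% of them at the acute times and 13.1% at 2 weeks. The 24 h and 2-week comparisons share the 24 h control, so they are not independent.

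**Figure D2:**
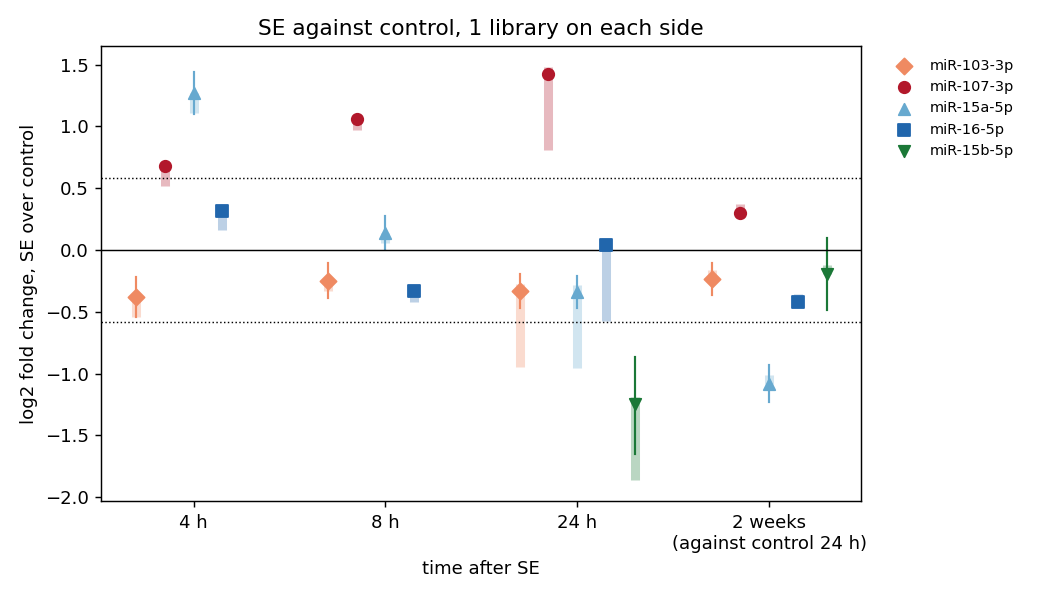
log2 fold change of SE over control at each time for the members that reached 50 CPM on either side, with thin bars for the 95% counting interval, wide pale bars for the range over 3 other scalings, and dotted lines at 1.5-fold. miR-107-3p lies at 0.68, 1.06 and 1.43 at 4 h, 8 h and 24 h while miR-103-3p lies between -0.38 and -0.24 throughout.

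Control pools of different time-points also differed from one another. Between control 24 h and control 4 h, miR-107-3p was 2.87-fold lower at 24 h, and between control 24 h and control 8 h it was 2.13-fold lower. miR-15a-5p was 1.84-fold and 1.58-fold higher in control 24 h than in control 4 h and control 8 h. Counting miR-15b-5p, absent from control 4 h, 5 member differences over the 3 control pairs passed 1.5-fold. Among all miRNAs 59.3% passed it between 4 h and 8 h, 69.6% between 4 h and 24 h and 45.4% between 8 h and 24 h. miR-103-3p and miR-16-5p stayed within 1.5-fold in each control pair.

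The SE and control libraries of 4 h, 8 h and 24 h were then put into an edgeR quasi-likelihood fit, 3 libraries a side, where the spread between libraries includes that between time-points. miR-107-3p had a log2 fold change of 0.95 ± 0.40 (SE of the estimate) with a Benjamini-Hochberg adjusted p of 0.42 by that edgeR test, and was higher in SE at 3 of 3 time-points. miR-103-3p had -0.34 ± 0.33 (edgeR adjusted p = 0.81), lower in SE at 3 of 3 time-points. How many of the 136 miRNAs tested kept 1 direction at the 3 time-points was not computed. miR-15a-5p had 0.33 ± 0.40 (edgeR adjusted p = 0.88) and miR-16-5p 0.00 ± 0.25 (edgeR adjusted p = 0.99). None of these 4 members passed, and 0% of the 136 miRNAs tested did, with 15 at an unadjusted p under 0.05. By DESeq2, 13 of 573 miRNAs passed (2.27%), and miR-107-3p did not (adjusted p = 0.38). Without control 24 h, the lowest library for miR-107-3p, its log2 fold change was 0.62.

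The composition of the pair miR-103-3p and miR-107-3p was compared because it does not depend on how libraries are scaled. It does depend on how reads that fit both were assigned, which is not given, so the shares below are as uncertain as the separate counts. miR-107-3p dominated the pair in every library. In control plasma miR-103-3p took 3.34% of their counts at 4 h, 3.65% at 8 h and 9.70% at 24 h. In SE plasma its share was 1.63%, 1.51% and 3.08% at the same times and 6.88% at 2 weeks. In ratios, miR-107-3p had 28.9, 26.4 and 9.31 counts for each of miR-103-3p in the controls and 60.3, 65.2, 31.4 and 13.5 in SE.

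The share was lower in SE than in the control of the same time at 3 of 3 acute time-points, and the acute SE shares did not overlap the control shares. How often other pairs of miRNAs separate in this way was not computed. The level of miR-103-3p ranged only from 195 to 308 CPM, so the share largely restates that of miR-107-3p. The mean share was 2.07% ± 0.874 (SD, n = 3 libraries) in acute SE and 5.57% ± 3.58 (SD, n = 3) in control, a difference of -3.49 percentage points. A two-sided exact permutation test gave p = 0.1, the smallest p that 3 against 3 allows, and 0.2 after Benjamini-Hochberg adjustment over 4 comparisons. A test of this size cannot reach 0.05 whatever the values. Without control 24 h it was -1.42 percentage points, and with SE 2 weeks added it was -2.29 (exact permutation p = 0.34). The log2 ratio of miR-107-3p to miR-103-3p was higher in acute SE by 1.37 (exact permutation p = 0.1).

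Counting error alone is small, with 95% Wilson intervals of 3.07% to 3.64% in control 4 h and 1.53% to 1.74% in SE 4 h. Counts divided by the low-count value leave 5 units of miR-103-3p in control 4 h and 14 to 25 in the other libraries. On those units the intervals were 1.48% to 7.82% in control 4 h and 1.12% to 2.42% in SE 4 h, and 2.35% to 5.91% in control 8 h and 0.923% to 2.58% in SE 8 h, so the libraries overlapped at both times. At 24 h they did not overlap, with 6.49% to 14.2% in control and 1.86% to 4.97% in SE. At 2 weeks the interval was 4.61% to 9.92%, overlapping control 24 h. The intervals on units take the low-count value as the unit sampled, which was not tested, so neither overlap nor its absence is settled by them.

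**Figure D3:**
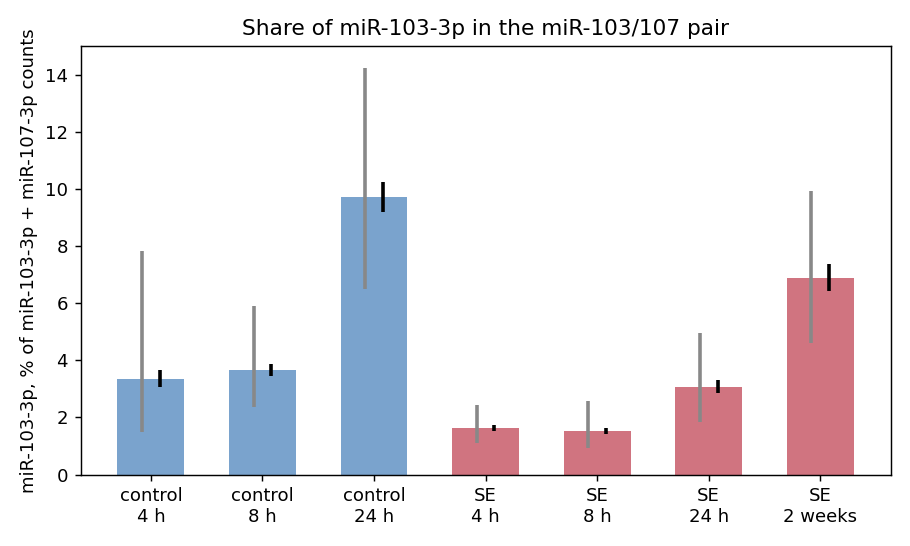
Share of miR-103-3p in the summed counts of miR-103-3p and miR-107-3p in each library (bars, control in blue and SE in red), with 95% Wilson intervals on the counts (black) and on counts divided by the library's low-count value (grey). The 3 acute SE libraries hold 1.51% to 3.08% and the 3 control libraries 3.34% to 9.70%.

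Taken as 1 family, the 7 members held 1.07%, 1.27% and 0.983% of all counts in control 4 h, 8 h and 24 h, and, in order of time, 1.47%, 1.86%, 1.01% and 0.933% in SE. The acute SE mean exceeded the control mean by 0.341 percentage points (exact permutation p = 0.3, two-sided), with overlapping groups, and by 0.132 points without SE 8 h. With miR-486b-5p left out of the total, the difference was 0.793 points (exact permutation p = 0.2), and the 24 h shares were 2.98% in control and 4.21% in SE. miR-107-3p supplied between 33.7% of the family's counts in control 24 h and 78.4% in SE 8 h. The 5 members with the miR-15/16 seed summed to 3980 to 5329 CPM in control and 3312 to 5407 CPM in acute SE, so the groups overlapped.

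The cluster partners did not keep a fixed proportion. miR-16-5p had 20.1, 14.2 and 12.0 counts for each count of miR-15a-5p and miR-15b-5p together in control 4 h, 8 h and 24 h. The same ratio in SE, in order of time, was 9.63, 10.3, 16.8 and 16.8. The 2 lowest ratios were those of SE 4 h and SE 8 h, while SE 24 h lay inside the control range. The top of that range is control 4 h, with 329 counts of miR-15a-5p, 3.22 times its low-count value, and 0 of miR-15b-5p. SE 24 h and SE 2 weeks lay above control 8 h and control 24 h.

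The chromosome 11 cluster was near the limit of counting. miR-195a-5p had 0 counts in the 3 control libraries, which on plain totals allows up to 1.47, 0.850 and 0.879 CPM in order of time. In SE it had 127 counts (29.8 CPM) at 4 h, 66 (18.1 CPM) at 8 h, 95 (33.9 CPM) at 24 h, and then 7 (2.27 CPM) after 2 weeks. Against the floor of 3 counts the acute SE levels were at least 17.3-fold, 26.0-fold and 44.6-fold higher. Those bounds take 3 counts as resolved. In control 8 h and control 24 h the low-count value was 14.0 CPM, against 18.1 CPM in SE 8 h and 33.9 CPM in SE 24 h. How many of the 640 miRNAs had 0 counts in every control and counts in each acute SE library was not computed. The acute SE counts are 3.38, 1.27 and 2.10 low-count values, and in control 4 h that value, 58.7 CPM, lies above every level seen. miR-195a-5p stayed under 50 CPM and was outside the edgeR comparison. With every counted miRNA tested its edgeR quasi-likelihood adjusted p was 0.28, and DESeq2 gave an adjusted p of 0.0082.

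The other arm of that hairpin, miR-195a-3p, had 125 counts in control 8 h, 0 in the other controls, and 88, 0, 48 and 19 in SE in order of time, so the hairpin gave counts in 1 control library. miR-497a-5p, its neighbour in the cluster, had 92 counts in control 8 h, and 121 and 47 counts in SE 4 h and SE 24 h, with 0 in the other 4 libraries. As counted, the presence of miR-497a-5p did not follow SE. Its counts in control 8 h, SE 4 h and SE 24 h are 1.53, 3.22 and 1.04 low-count values, so its absences are poorly resolved.

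Of the 9 opposite arms listed for these hairpins, 5 were counted. miR-15a-3p, miR-15b-3p, miR-16-1-3p and miR-16-2-3p had 0 counts in control 4 h and at most 162 in any library (miR-16-1-3p in SE 24 h, 57.8 CPM), against 6606 to 20115 counts of miR-16-5p. Of the 551 counted miRNAs matched to a sequence, 1 non-member carried a member's seed. It was miR-322-5p, which shares AGCAGCA with the miR-15/16 members and had 63.1, 39.9 and 115 CPM in the controls and 47.0, 40.4, 28.5 and 40.8 CPM in SE. Its highest level was in control 24 h and its lowest in SE 24 h.

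The profiles over the 7 libraries were compared as log2(CPM + 1) centred on each miRNA's mean, among miRNAs that reached 50 CPM in 4 or more libraries. The measure is the root mean square distance on the log2 scale, given as a description. Nearest to miR-103-3p among the non-members were miR-221-3p (0.12), miR-92a-3p (0.12) and let-7c-5p (0.14). Nearest to miR-107-3p were miR-92b-3p (0.30), miR-199b-3p (0.34) and miR-676-3p (0.35). Nearest to miR-16-5p were miR-340-5p (0.19), let-7f-5p (0.20) and let-7c-5p (0.24).

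miR-103-3p and miR-107-3p lay 0.95 apart. miR-107-3p was the 104th of 129 miRNAs in likeness to miR-103-3p, and miR-103-3p the 64th of 129 in likeness to miR-107-3p. The distance is not scaled to how widely each profile varies. miR-16-5p lay 0.24 from miR-103-3p and 0.88 from miR-107-3p. The profile nearest to miR-107-3p, that of miR-92b-3p, had 991, 586 and 260 CPM in control 4 h, 8 h and 24 h and 870, 1110, 562 and 226 CPM in SE in order of time. Unlike miR-107-3p it was lower in SE than in control at 4 h. miR-92a-3p and miR-92b-3p share a seed, AUUGCAC, as miR-103-3p and miR-107-3p do.

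**Figure D4:**
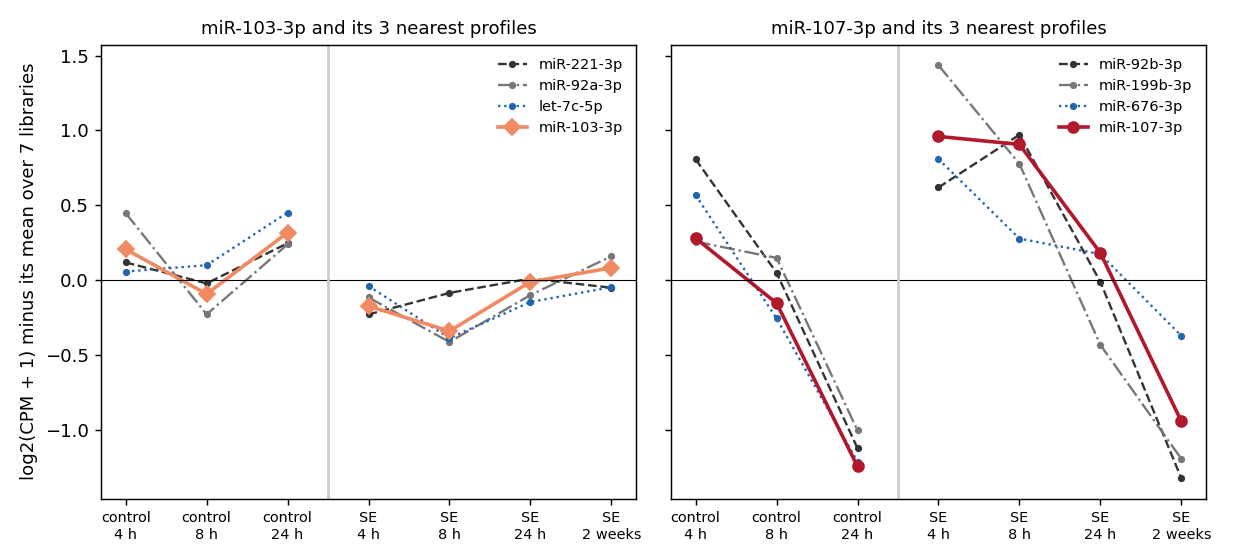
Centred log2(CPM + 1) of miR-103-3p (left) and miR-107-3p (right), each with its 3 nearest profiles, in the 3 control and 4 SE libraries, with lines joining libraries of 1 group as a guide only. miR-103-3p and its neighbours stay within a narrow band, and miR-107-3p and its neighbours are lowest in control 24 h or SE 2 weeks.

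Markers of other cells were set beside these levels. The leukocyte list (4 miRNAs, all counted) summed to 4526 to 9861 CPM in control and 5499 to 9059 CPM in acute SE. The neuron list (4 miRNAs, all counted) summed to 1142 to 2286 CPM in control and 1349 to 1859 CPM in acute SE, nearly all of it miR-128-3p, and miR-124-3p was counted in SE 24 h alone, with 49 counts. miR-128-3p had 1072, 1431 and 2273 CPM in the controls and 1332, 1181 and 1768 CPM in acute SE. It was thus higher in SE at 4 h and lower at 8 h and 24 h. By contrast, miR-138-5p and miR-9-5p were higher in SE than in control at 8 h and 24 h, from low control counts. In control 8 h and 24 h these were 76 and 52 for miR-138-5p and 111 and 1 for miR-9-5p. miR-138-5p had 0, 17.6 and 13.2 CPM in the controls and 16.7, 90.3 and 33.9 CPM in acute SE. miR-9-5p had 70.0, 25.7 and 0.25 CPM in the controls and 31.9, 78.0 and 39.6 CPM in acute SE, so it was lower in SE at 4 h. The platelet and myeloid list summed to 281 to 655 CPM in control and 464 to 684 CPM in acute SE, and the liver miRNA miR-122-5p had at most 59 counts. The 3 summed ranges overlapped between control and acute SE, and their part in the levels of the members was not tested.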

How the data were processed

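Ago2-bound small RNA was measured in 7 plasma pools, 1 per condition. The authors prepared TruSeq small RNA libraries, sequenced them on an Illumina HiSeq, and used the Chimera software to trim adapters, size-select reads and align them by BLASTn to miRBase with up to 2 mismatches. The methods name miRBase V 21 for the mapped list, and the version of Chimera is not given in the sources used here. They deposited raw read counts per mature miRNA, with no normalization. Total counts were 2043220 to 5405357 per library, and 3 counts, the floor, were 0.555 to 1.47 CPM. The submitters' processing notes also name edgeR and limma.

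From these counts, TMM factors over 7 libraries, CPM, log2 fold changes (prior count 0.125) and the quasi-likelihood test with Benjamini-Hochberg adjustment were computed in edgeR 4.0.16 (R 4.3.3), the last keeping miRNAs that reached 50 CPM in 3 or more of 6 libraries. DESeq2 1.42.0 was an alternative. Permutation tests and intervals used scipy 1.17.1 in Python 3.11.15. With 1 library per condition, an exact test at the biological coefficient of variation (BCV) of 0.1 that the study set was an alternative to fold alone. Low-count values were the mode of a kernel density of log counts from 6 to 300 (bandwidth 0.15, natural log). The fits were tested on data simulated at a BCV of 0.1. The quasi-likelihood fit gave a BCV of 0.56 in the real libraries, so the simulation does not show its power here. Mature sequences and positions came from RefSeq (GRCm38.p6), matched by name for 551 of 640 miRNAs, and host genes from GENCODE M21.

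The members, their opposite arms, counted miRNAs sharing a seed, the 3 nearest profiles of 3 members, and the marker lists were named. Members and lists were chosen with earlier results of these data known. Alternatives were other scalings, filters, prior counts, fold thresholds, controls, a time-point block and leaving out libraries. The pair's sum, its log2 ratio and the low-count units were added after seeing the data.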

Additional observations from a re-analysis of the deposited data

Results flagged for a closer look

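miR-15a-5p was called in opposite directions at different times, its log2 fold change being 1.27 at 4 h and -1.08 at 2 weeks. Each value compares 1 library with 1 library, and the difference between the time-points was not tested.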

How the results depend on the processing

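The number of members called moved by more than 1.5 times under several alternatives. At 4 h it was 2, and became 1 with library size only, DESeq2's size factors, TMM over the pair compared, pooled controls or a 2-fold threshold, because miR-107-3p or miR-15a-5p fell short. Without the filter, or with miR-486b-5p left out, it was 5 at 4 h (from 2), 3 at 8 h (from 1) and 4 at 24 h (from 2), and without the filter it was 2 at 2 weeks (from 1). The calls so added were of miR-15b-5p, miR-195a-5p or miR-497a-5p, each with 0 counts in 1 of the 2 libraries compared. Library size only gave 4 at 24 h, 1 higher and 3 lower. Pooled controls gave 3 at 8 h, 0 at 24 h and, for the 2-week library, 2, and control 4 h as the 2-week reference also gave 2. An exact test at a set BCV of 0.4 left 0 at every time, and at 0.1 it left the counts as they were. In the 3 against 3 comparison DESeq2 called 1 member, miR-195a-5p, and edgeR's quasi-likelihood test 0 under each of its alternatives. The fitted log2 fold change of miR-16-5p, 0.00, changed sign to -0.015 with the time-point block, -0.018 with SE 2 weeks added, -0.023 with DESeq2 and -0.30 with library size only, and ran from -0.060 to 0.18 with 1 library left out. With 1 library left out, that of miR-107-3p ran from 0.62 (without control 24 h) to 1.27 (without control 4 h), and the difference in the share of miR-103-3p from -4.60 to -1.42 percentage points. Same-time libraries deviated together with r = 0.17 at 4 h, 0.05 at 8 h and 0.34 at 24 h. SE and control libraries of different times had r from -0.37 to 0.29. The main test was unpaired, and the time-point block was kept as an alternative. Under the time-point block miR-107-3p had 1.03 ± 0.21 (edgeR adjusted p = 0.10), no member was called, and the difference in share was -3.49. Beyond which members entered or left the calls, the cause of these movements was not tested. Depth limits miR-15b-5p, miR-195a-5p and miR-497a-5p, whose counts lay near the low-count value, most of all in control 4 h.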
